A study of Mus musculus with 15 samples.

Results

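The comparison described here is the difference between the responses of CD4 and CD8 T cells to transfer into an allogeneic host. For each gene, the CD4 response was the log2 fold change from CD4 control cells (day 0) to CD4 Flica-negative cells (day 7 of acute graft-versus-host disease, aGvHD). The CD8 response was the same change in CD8 cells. The value tested was the CD4 response minus the CD8 response, that is, the lineage by day term. A positive value means that the gene rose more, or fell less, in CD4 cells, and a negative value means the same for CD8 cells. The comparison used 12 of the 15 libraries of the series, 3 in each of 4 groups, and 3523 of the 4567 genes listed in the deposited tables, the ones that averaged 10 or more normalized counts in these libraries. The remaining 1044 genes lay below that mean.

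All 4 groups came from spleens and carried the C57Bl6 genotype. Control cells were sorted from C57Bl6 mice that had neither been irradiated nor transplanted (treatment None, Day 0), and the day 7 cells were C57Bl6 donor T cells recovered from BALB/c recipients that had received 8 Gy of total body irradiation, bone marrow and T cells. Donors and recipients were 6 to 8 weeks old by the methods of the paper, while some of its figure legends for this model give a younger range for recipients. Flica is a dye that labels cells with active caspase-1, and all 4 groups used here were sorted as Flica-negative. Each sort used 1 to 2 control mice or 8 to 12 mice with aGvHD, so a day 7 library can hold RNA from several animals. The labels call the libraries biological replicates without giving the animals behind each. They also do not say whether the CD4 and CD8 libraries of a day share mice. Day, transfer, irradiation of the host and the disease change together between the groups and cannot be told apart.

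CD4 and CD8 T cells share a precursor in the thymus and part when a cell commits to recognising peptides on MHC class II or class I molecules. ThPOK, encoded by Zbtb7b, holds the CD4 helper fate, and RUNX factors hold the CD8 cytotoxic fate and silence Cd4 and Zbtb7b. In the major mismatch of C57Bl6 cells in a BALB/c host both lineages meet foreign MHC, and both are known to contribute to aGvHD, CD4 cells mainly through cytokines and help and CD8 cells mainly through killing of target cells.

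The sequences upstream of 4 genes are shown because these genes had some of the largest differences among abundant transcripts and because RUNX factors and the T-box factor T-bet are central to both lineages. Each is the 250 bases before a RefSeq transcription start in GRCm38.p6, written on the strand of the gene, with the letters TGTGGT (the core of the RUNX motif) or GGTGTG (the core of the T-box motif), on either strand, in capitals. Nkg7 (chr7:43436888-43437137, plus strand) and Adgrg5 (chr8:94923444-94923693, plus strand) had the higher response in CD4 cells. Il2ra (chr2:11642542-11642791, plus strand) and Zbtb7b (chr3:89393379-89393628 and chr3:89387672-89387921, minus strand, 2 starts) had the higher response in CD8 cells.
Nkg7: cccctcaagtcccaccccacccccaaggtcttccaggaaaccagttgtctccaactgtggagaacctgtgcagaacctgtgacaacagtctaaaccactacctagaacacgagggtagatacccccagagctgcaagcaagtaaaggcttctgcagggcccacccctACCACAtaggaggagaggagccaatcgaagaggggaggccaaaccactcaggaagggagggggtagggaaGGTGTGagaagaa
Adgrg5: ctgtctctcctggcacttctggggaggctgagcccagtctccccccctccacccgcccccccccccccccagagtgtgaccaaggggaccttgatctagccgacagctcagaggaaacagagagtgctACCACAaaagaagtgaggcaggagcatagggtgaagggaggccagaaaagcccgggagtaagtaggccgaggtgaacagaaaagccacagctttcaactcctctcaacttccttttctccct
Il2ra: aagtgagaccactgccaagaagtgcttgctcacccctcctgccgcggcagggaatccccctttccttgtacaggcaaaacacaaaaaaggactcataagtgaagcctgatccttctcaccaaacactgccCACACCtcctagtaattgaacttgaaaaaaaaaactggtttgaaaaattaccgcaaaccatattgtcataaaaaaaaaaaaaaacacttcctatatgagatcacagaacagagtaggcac
Zbtb7b start 1: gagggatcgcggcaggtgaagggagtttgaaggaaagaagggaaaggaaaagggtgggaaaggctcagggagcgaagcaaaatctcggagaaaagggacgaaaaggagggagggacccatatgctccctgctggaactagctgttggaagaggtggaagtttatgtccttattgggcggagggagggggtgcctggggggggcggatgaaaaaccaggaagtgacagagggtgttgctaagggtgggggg
Zbtb7b start 2: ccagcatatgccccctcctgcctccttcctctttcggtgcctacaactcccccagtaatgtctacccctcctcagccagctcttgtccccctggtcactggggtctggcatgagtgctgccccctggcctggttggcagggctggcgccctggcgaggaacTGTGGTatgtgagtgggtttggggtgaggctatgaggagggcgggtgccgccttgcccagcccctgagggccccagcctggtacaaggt
Nkg7 held 1 match to each motif, Adgrg5 1 match to the RUNX letters and Il2ra 1 match to the T-box letters. For Zbtb7b the first start held neither and the second held 1 RUNX match. Among all 32851 RefSeq promoters of this length, 14.05% held the RUNX letters and 16.3% the T-box letters. The shares were 15.8% and 21.2% for the 222 promoters of genes with the higher response in CD4 cells, and 13.7% and 19.9% for the 211 of genes with the higher response in CD8 cells. They were 13.6% and 18.5% for the 2655 promoters of the genes tested. Symbols matched for 179 of 273, 156 of 223 and 2074 of 3426 genes of these sets, and a gene can have several promoters. A match describes letters in a window and not a bound site.

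The authors' tables listed a gene only if it had passed an adjusted p of 0.05 and an absolute log2 fold change of 2 in at least 1 of 4 contrasts, 2 of which are the CD4 and CD8 responses used here. The percentages below are therefore shares of these listed genes and not of the transcriptome, and genes with smaller changes in every contrast are not covered. Of the 3523 genes tested, 957 were listed only for a contrast with Flica-positive CD8 cells, and 35 of the genes called below came from these. Counts on listed genes summed to 2143579 to 3184674 per library, and size factors lay between 0.896 and 1.25. Cd8a, the alpha chain of the CD8 co-receptor, lay at 12817 to 21642 normalized counts in the 6 CD8 libraries and at 4.41 to 117 in the 6 CD4 libraries, without overlap. None of 15 T cell markers such as Cd3e and Trac, nor Cd4 and Cd8b1, was among the listed genes, so these could not be checked.

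The lineage by day term was called (edgeR quasi-likelihood test, Benjamini-Hochberg adjusted p below 0.05) for 501 of the 3523 genes, 14.2% of those tested. The response was higher in CD4 cells for 276 genes (7.83%) and higher in CD8 cells for 225 (6.39%). Which direction held more genes depended on the fit, with 247 higher in CD4 and 257 in CD8 cells with DESeq2 size factors. The counts were 192 and 208 with all 15 libraries and 264 and 283 without CD8 control replicate 1. Over all genes tested the median difference was -0.01 on the log2 scale, with quartiles of -1.15 and 0.99. Of the called genes, 468 differed by at least 1 on the log2 scale and 115 by at least 4. An unadjusted p below 0.05 was reached by 1012 genes.

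Where both responses were called, nearly all shared their direction. A difference that was not called does not show that the responses were alike in size. The CD4 response was called for 2464 genes (69.9%) and the CD8 response for 2684 (76.2%), 2143 genes were called in both, and 2122 of these moved in the same direction. Across genes the responses had a Pearson correlation of 0.835, which is a description over 3523 genes that are not independent and that were listed for large changes. Among the 276 genes with the higher response in CD4 cells, 118 fell in both lineages and fell less in CD4 cells, and 76 rose in both and rose more in CD4 cells. Another 42 fell in CD8 cells alone, 29 rose in CD4 cells alone and 11 rose in CD4 and fell in CD8 cells. Among the 225 genes with the higher response in CD8 cells, 129 rose in both lineages, 40 rose in CD8 cells alone, 28 fell in CD4 cells alone, 18 fell in both and 10 rose in CD8 and fell in CD4 cells. The largest class was therefore a shallower fall for genes higher in CD4 cells and a steeper rise for genes higher in CD8 cells. These classes depend on the scaling. With TMM scaling the CD4 response was called as a rise for 1187 genes and a fall for 1228, beside 1367 and 1097 here.

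**Figure D1:**
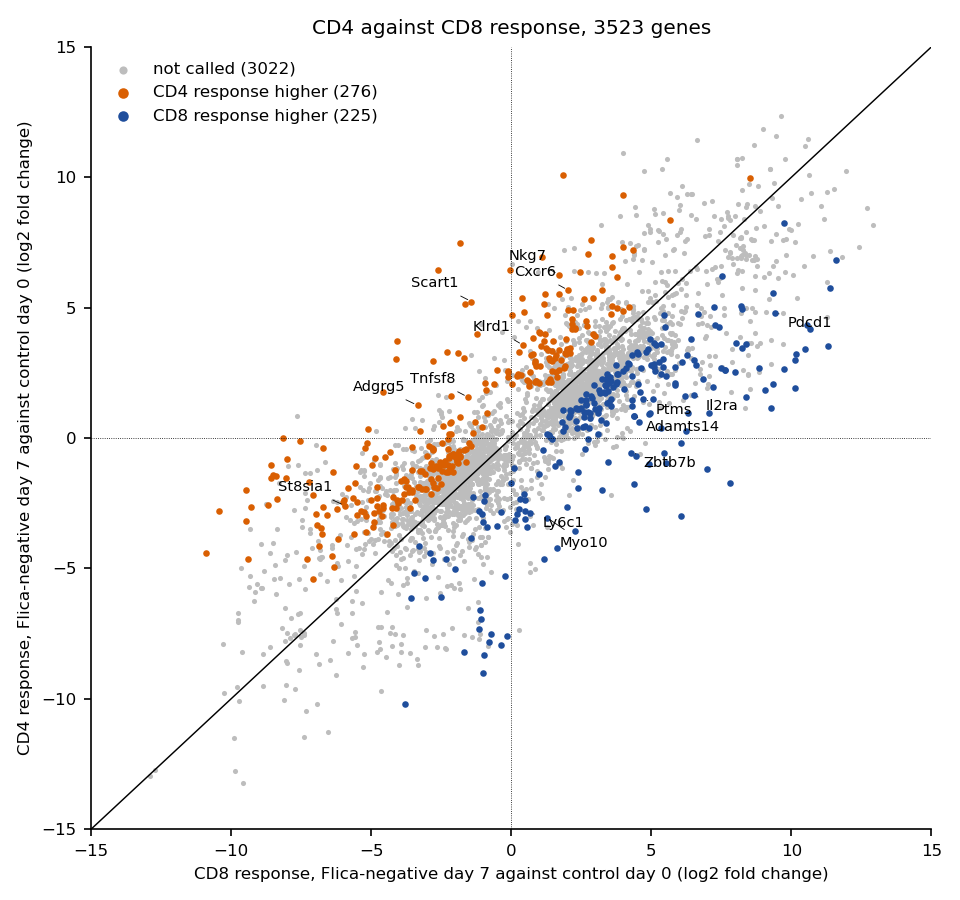
Each point is 1 of 3523 genes, with the CD8 response on the x axis and the CD4 response on the y axis (log2 fold change from day 0 control to day 7 Flica-negative cells, fitted from 3 libraries per group). Orange points are the 276 genes with a higher response in CD4 cells and blue points the 225 with a higher response in CD8 cells. They lie on either side of the line of equal response, and 21 of them lie in the quadrants of opposite called responses. The values of genes with a group near 0 counts depend on the prior count of the fit.

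The same term can be read as a change in the distance between the lineages. At day 0 the CD4 and CD8 controls differed for 491 genes (13.9%), 283 higher in CD4 (8.03%) and 208 in CD8 cells (5.9%). At day 7 the CD4 and CD8 Flica-negative cells differed for 797 (22.6%), 450 higher in CD4 (12.8%) and 347 in CD8 cells (9.85%). The day 7 count of 797 went to 487 without CD4 Flica-negative replicate 2. Of the 501 genes, 226 differed between the lineages at day 7 only, 150 at day 0 only, 93 on both days and 32 on neither. Of the 93, the same lineage was above on both days for 57 and the other lineage had moved above by day 7 for 36. Among genes with the higher response in CD4 cells, 145 of 276 were not called at day 0 and stood above CD8 cells at day 7, and 64 had been higher in CD8 controls and were not called at day 7. Among genes with the higher response in CD8 cells, 86 of 225 had been higher in CD4 controls and were not called at day 7, and 81 were not called at day 0 and stood above CD4 cells at day 7.

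**Figure D2:**
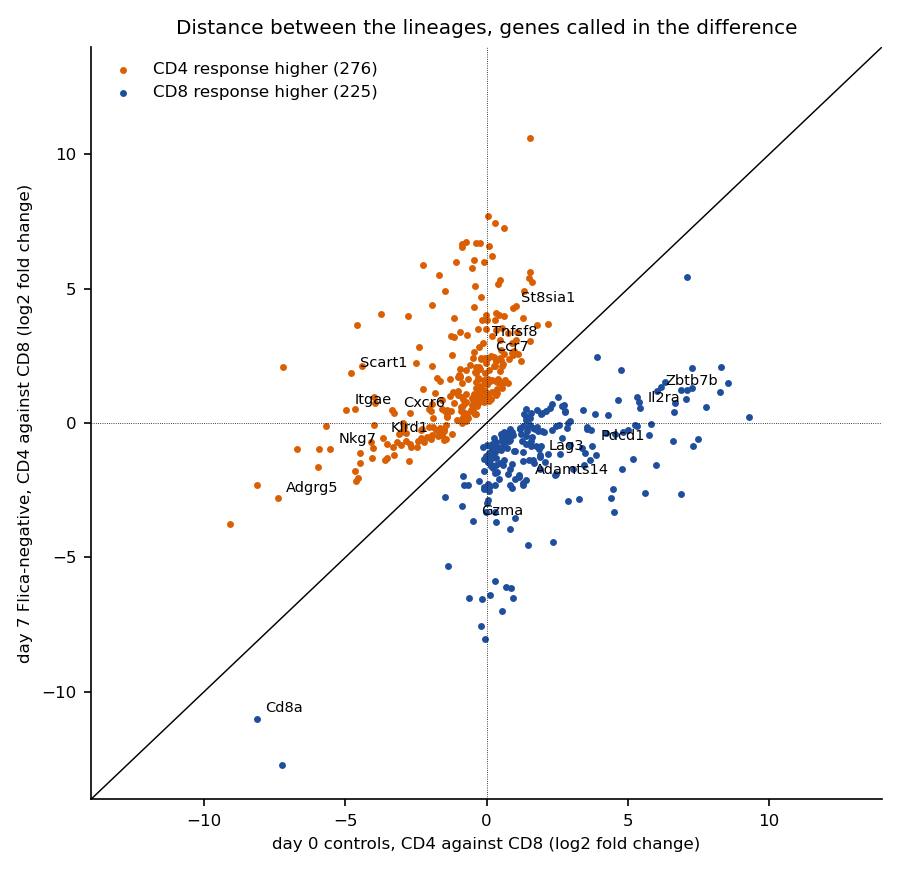
The x axis gives the log2 fold change of CD4 over CD8 controls on day 0 and the y axis that of CD4 over CD8 Flica-negative cells on day 7, for the 501 called genes. Genes near the horizontal axis, such as Il2ra, Klrd1 and Itgae, differed between the lineages on day 0 and far less on day 7. Genes near the vertical axis, such as Tnfsf8, Ccr7 and Gzma, differed on day 7 and far less on day 0.

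Zbtb7b, the gene of the CD4 lineage factor ThPOK, changed in the lineage that normally silences it. In CD8 control libraries it stood at 84.6, 127 and 48.1 normalized counts, and in CD8 Flica-negative libraries at 1919, 1745 and 1422. In CD4 cells it stood at 4909.9, 6052 and 6056 on day 0 and 4113, 4070.3 and 3378 on day 7. The 4 groups did not overlap, CD4 libraries stayed above CD8 libraries on both days, and the distance between the lineages went from 6.03 to 1.18 on the log2 scale. The CD8 response was 4.29, the CD4 response -0.56 (edgeR adjusted p = 0.0491) and the difference -4.84 ± 0.36 (SE, n = 3 per group, adjusted p = 1.44e-06). Cd40lg, the CD40 ligand through which helper cells activate antigen-presenting cells, also rose more steeply in CD8 cells, from 14.1 ± 10.8 to 71.9 ± 9.01 (SD, n = 3). It remained far below CD4 cells, which went from 1969 ± 54.2 to 3112 ± 518. Its difference of -1.67 ± 0.45 (adjusted p = 0.0224) was lost without each of CD4 Flica-negative replicate 3 and CD8 control replicate 1 (adjusted p from 0.0505 to 0.0534) and with TMM scaling and limma-voom (0.0552 to 0.0873). Cd8a differed as well, by -2.86 ± 0.48 (adjusted p = 0.000832). The CD4 libraries went from 49.1, 42.5 and 117 counts on day 0 to 4.41, 4.46 and 10.4 on day 7, which are low against the CD8 libraries. The CD8 response of -0.51 was not called (adjusted p = 0.084).

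Opposite responses were called for 21 genes. The difference was called for all of them, which is close to given once 1 response is called up and the other down. The count of 21 is from the main fit. TMM scaling moved the median CD4 response by -0.37 and the CD8 response by -0.40, so a small rise or fall can depend on the scaling. Adgrg5, an adhesion G protein-coupled receptor, rose slightly in CD4 cells and fell in CD8 cells. It stood at 3904, 4769 and 4976 in CD8 controls and at 315, 464 and 566 in CD8 Flica-negative libraries, against 17.9, 34.8 and 27.6 in CD4 controls and 26.4, 107 and 61.7 in CD4 Flica-negative libraries. The CD8 groups did not overlap, while the CD4 groups did, and the difference was 4.59 ± 0.54 (adjusted p = 3.09e-05). Tnfsf8, the CD30 ligand, started level, at 798, 993 and 923 in CD4 and 943, 982 and 1004 in CD8 controls, and reached 2485, 2612 and 2938 in CD4 and 412, 282 and 312 in CD8 Flica-negative libraries. The controls overlapped and the day 7 groups lay on either side of them, with responses of 1.57 and -1.54 and a difference of 3.11 ± 0.26 (adjusted p = 1.94e-06). Scart1, a scavenger receptor gene known from gamma delta T cells, moved in opposite directions. It went from 25.7, 18.4 and 0 to 469, 605 and 553 in CD4 cells. CD8 libraries went from 307, 338 and 546 to 146, 110.1 and 189, so the lineage that was above on day 0 was below on day 7 (difference 6.65 ± 0.85, adjusted p = 6.47e-05). Of 4 gamma delta T cell markers tested, such as Trdc, the difference was called for none by edgeR (14.2% of all genes tested), DESeq2 or limma-voom. At an unadjusted p below 0.05 there was 1. One of the 4, Blk, is also a B cell marker. The other 3, set apart after the values were seen, summed in CD4 cells to 163 to 213 normalized counts on day 0 and 125 to 202 on day 7, and in CD8 cells to 122 to 175 and 187 to 258. Its neighbour in name, Scart2, had a difference of 5.17 ± 0.55 (adjusted p = 1.19e-05), with a CD4 response of 3.27 and a CD8 response of -1.90.

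With Zbtb7b, the opposite responses that rose in CD8 and fell in CD4 cells included Ly6c1 and Myo10. Ly6c1 encodes the surface antigen Ly6C, a marker of memory and effector T cells. It fell in CD4 cells from 1775, 1787 and 2160.4 to 189.5, 323 and 275. It rose in CD8 cells from 471, 583 and 305 to 576, 737 and 847, where the day 0 and day 7 libraries overlapped (difference -3.53 ± 0.37, adjusted p = 1.21e-05). Myo10, an unconventional myosin of filopodia, stood at 1146, 1119 and 1300.3 in CD4 controls and 89.9, 166 and 171 in CD4 Flica-negative libraries. In CD8 cells it stood at 41.4, 31.3 and 15.4 and 65, 45.7 and 105, and the difference of -4.35 ± 0.54 (adjusted p = 5.19e-05) came mainly from the fall in CD4 cells.

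Most checkpoint and exhaustion genes rose in both lineages, and those with a called difference had the higher response in CD8 cells. Of 13 members tested, 11 rose in CD4 cells, beside 38.8% of all genes tested, and 13 in CD8 cells, beside 42.0%. The difference was called for 7, all with the higher response in CD8 cells (6.39% of all genes tested), and the median difference of the 13 was -2.62. Pdcd1, encoding the inhibitory receptor PD-1, stood at 157, 117 and 204 in CD4 controls and 4594, 4599 and 4269 in CD4 Flica-negative libraries. In CD8 cells it went from 5.29, 20.6 and 9.62 to 8024, 8221 and 8133. CD4 cells were above CD8 cells on day 0 and below them on day 7 without overlap, and the difference was -4.60 ± 0.40 (edgeR adjusted p = 2.34e-06). Lag3, another inhibitory receptor that binds MHC class II, followed the same order. It went from 100.5, 89 and 191 to 1888, 2419 and 3103 in CD4 cells. The CD8 libraries moved from 35.2, 23.3 and 44.2 to 5744, 6225 and 5633 (-3.14 ± 0.41, adjusted p = 7.51e-05).

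Ctla4, which competes with CD28 for its ligands, ended at like levels. On day 0 it stood at 877, 851 and 607 in CD4 and 95.1, 191 and 112 in CD8 controls. The day 7 libraries overlapped, at 10481, 10824 and 11445 in CD4 and 11528, 11936 and 10944 in CD8 cells, and the difference was -2.62 ± 0.30 (adjusted p = 2.51e-05). Rgs16, a regulator of G protein signalling, had a difference of -3.16 ± 0.54 (adjusted p = 0.00103) and Cd200r1, an inhibitory receptor for CD200, of -2.82 ± 0.54 (adjusted p = 0.00244). The call of Cd244a (-4.01, adjusted p = 0.0372), a receptor of the SLAM family, was lost without any 1 library other than CD4 control replicates 1 and 2, CD4 Flica-negative replicate 3 and CD8 control replicate 2 (adjusted p from 0.0546 to 0.164) and with a replicate block (adjusted p = 0.0604). That of Entpd1, the ectonucleotidase CD39 (-1.22, adjusted p = 0.0499), was lost without any 1 library other than CD8 control replicate 2 (adjusted p from 0.0558 to 0.0945) and with TMM scaling, all 15 libraries, limma-voom, no filter on low counts and a replicate block (0.0544 to 0.0748). The 3 Nr4a genes, which are induced by antigen receptor signalling, rose in both lineages, and their differences were not called (Nr4a1 -0.58 ± 0.23, adjusted p = 0.116).

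**Figure D3:**
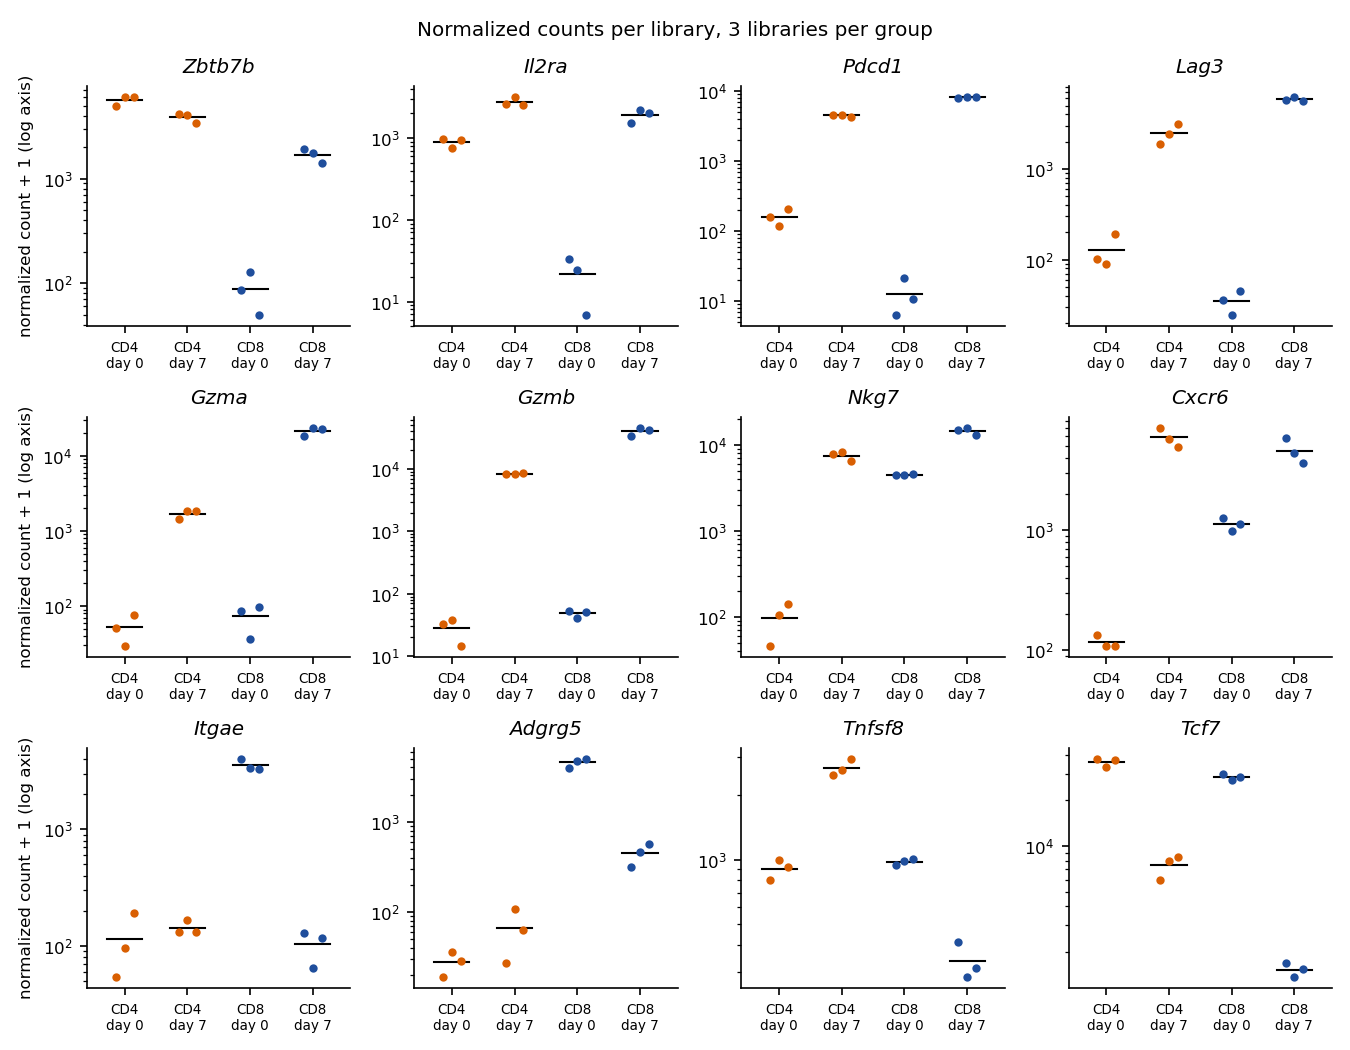
Normalized counts plus 1 (log axis) in each of the 12 libraries for 12 genes, with CD4 libraries in orange, CD8 libraries in blue and a black bar at the mean of 3 libraries. Zbtb7b, Il2ra, Pdcd1, Lag3, Gzma and Gzmb rose more steeply in CD8 cells (Zbtb7b in CD8 cells alone), and the other 6 had the higher response in CD4 cells. The latter showed a steeper rise (Nkg7, Cxcr6), opposite responses (Adgrg5, Tnfsf8), a fall in CD8 cells (Itgae) or a shallower fall (Tcf7).

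Cytotoxic genes differed in both directions. Of 14 members tested, all 14 rose in CD4 cells (38.8% of all genes tested) and 12 rose in CD8 cells (42.0%). The difference was called for 5 with the higher response in CD8 cells (6.39% of all genes tested) and 4 with the higher response in CD4 cells (7.83%), and the median was 0.59, or -0.14 when a member with a group at or below 3 counts per library entered at that floor. Gzma and Gzmb, the granzymes of cytotoxic granules, were low in both controls. Gzma went from 50.2, 28 and 74.7 to 1427, 1818 and 1852 in CD4 cells. In CD8 libraries it went from 85.5, 35.8 and 96.2 to 18479.5, 23554 and 22593, with overlapping controls and CD8 libraries far above on day 7 (-3.17 ± 0.45, adjusted p = 0.000165). Gzmb reached 8309, 8169 and 8577 in CD4 and 34448, 45578 and 42834 in CD8 Flica-negative libraries, after 32.4, 36.7 and 13.3 and 51.1, 40.3 and 51 on day 0. Its difference was -1.49 ± 0.33 (adjusted p = 0.00636) and was not called by limma-voom (adjusted p = 0.232).

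Gzmk, a granzyme of a less cytotoxic effector state, rose to 179, 181 and 183 in CD4 and 2403, 3576 and 2405 in CD8 cells, from 16.1 ± 13.7 and 9.21 ± 3.65 in controls (SD, n = 3, difference -4.79 ± 0.62, adjusted p = 7.61e-05). Prf1, encoding perforin, rose by 1.13 in CD4 and 2.43 in CD8 cells, with CD8 cells above on both days (-1.30 ± 0.22, adjusted p = 0.001). Fasl, the death ligand, was higher in CD4 cells on day 0, where CD4 controls held 220.0, 206 and 174 and CD8 controls 8.81, 1.79 and 0. The day 7 libraries overlapped at 1585, 1237 and 998 in CD4 and 2065, 1780.3 and 1378 in CD8 cells (difference -6.19 ± 0.61, adjusted p = 7.41e-06). Because CD8 controls were close to 0 counts, the size of this difference is imprecise, and it lay between -8.03 and -5.65 when each library was left out in turn.

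The 4 cytotoxic genes with the higher response in CD4 cells were Nkg7, Ctsw, Cst7 and Srgn. Nkg7, a granule protein needed for degranulation, stood at 4534, 4470.3 and 4602 in CD8 controls and 44.7, 105 and 141 in CD4 controls. On day 7 it stood at 15113, 15833 and 13188 in CD8 and 7879.9, 8253 and 6509 in CD4 libraries, still without overlap but with the distance down from -5.53 to -0.96 (4.57 ± 0.37, adjusted p = 1.44e-06). Ctsw, the lymphocyte cathepsin W, went from 722 ± 3.81 to 3795 ± 274 (SD, n = 3) in CD4 cells, and its CD8 response of 0.20 was not called (2.20 ± 0.19, adjusted p = 1.94e-06). Cst7, an inhibitor of granule cathepsins, rose in both (1.74 ± 0.27, adjusted p = 0.000397). Srgn, the granule proteoglycan serglycin, started level and ended higher in CD4 cells, at 14435, 15308 and 13796 against 8768, 8773 and 7568 (0.88 ± 0.19, adjusted p = 0.00572, and 0.0783 with TMM scaling).

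Among 11 killer cell lectin-like receptors, 10 rose in CD4 (38.8% of all genes tested) and 8 in CD8 cells (42.0%), and the difference was called for 3 (14.2%). Klrd1, encoding CD94, went from 207, 137 and 85.4 to 1874, 1688 and 1494 in CD4 cells, while CD8 cells stood at 2062, 1635 and 1805 and 2995, 2531 and 1867 (3.14 ± 0.37, adjusted p = 3.60e-05). Klrg1, a marker of terminal effector cells, rose from 2.64, 0 and 11.5 to 443, 637 and 572 in CD8 cells. CD4 libraries went from 74.8, 57.1 and 28.5 to 234, 313 and 220.2 (-4.60 ± 0.82, adjusted p = 0.00136). Klrb1c, encoding NK1.1, had a difference of -3.11 ± 0.54 (adjusted p = 0.00118). The partner of CD94, Klrc1, rose by 5.95 in CD4 and 6.25 in CD8 cells, and its difference of -0.30 ± 0.52 was not called (adjusted p = 0.752) and stood at 0.61 without CD4 control replicate 3.

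Of 15 effector transcription factors, 14 rose in CD4 (38.8% of all genes tested) and 15 in CD8 cells (42.0%). The difference was called for 10 (14.2%), 7 with the higher response in CD8 and 3 in CD4 cells, with a median of -0.72. Beside Zbtb7b, the CD8 response was higher for Prdm1, encoding BLIMP1. It went from 192, 141 and 157 to 1163, 1199 and 1069 in CD4 cells. CD8 libraries went from 52.9, 79.7 and 55.8 to 1868, 2015 and 2056, so that CD4 cells were above on day 0 and CD8 cells on day 7 (-2.17 ± 0.29, adjusted p = 0.000103). Zbtb32 (-3.18 ± 0.41), Epas1, encoding HIF-2 alpha (-2.89 ± 0.31), Maf (-1.46 ± 0.26) and Irf8 (-1.21 ± 0.26) had adjusted p of 7.51e-05, 1.39e-05, 0.00127 and 0.00513. Maf, a factor of helper cells, remained higher in CD4 cells on day 7, at 7649 ± 613 against 1407 ± 219.8 (SD, n = 3). Zeb2 (-1.72, adjusted p = 0.043) lost its call without any 1 library other than CD4 control replicate 2 and CD8 control replicate 1 (adjusted p from 0.0522 to 0.117) and with TMM scaling, all 15 libraries, limma-voom, no filter on low counts and a replicate block (0.0513 to 0.0911).

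The CD4 response was higher for Tbx21, encoding T-bet, the factor of type 1 immunity. The CD4 libraries moved from 75.9, 143 and 136 to 4773, 3848 and 3312 and CD8 libraries from 362, 509.5 and 479 to 5972, 5148 and 5093. The distance of -1.92 on day 0 was -0.44 and not called on day 7 (1.48 ± 0.32, adjusted p = 0.00478). Runx2, a RUNX factor of long-lived effector cells, went from 52.5, 76.4 and 149 to 7256, 6942 and 6142 in CD4 cells. The CD8 libraries moved from 334, 333 and 441 to 5513, 4873 and 4642 (2.42 ± 0.37, adjusted p = 0.000397). Hopx (0.83, adjusted p = 0.0457) lost its call without any 1 library other than CD4 Flica-negative replicate 3 and CD8 Flica-negative replicate 1 (adjusted p from 0.0503 to 0.0978) and with DESeq2 size factors, TMM scaling, all 15 libraries and no filter on low counts (0.0522 to 0.178).

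Type 1 helper genes with a called difference had the higher response in CD4 cells. Of 16 members tested, 15 rose in each lineage (38.8% of all genes tested in CD4 and 42.0% in CD8 cells). The difference was called for 7, all with the higher response in CD4 cells (7.83% of all genes tested), and the median was 0.81. Il18rap, a subunit of the IL-18 receptor, went from 77, 121 and 138 to 10472, 9453 and 11854 in CD4 cells. In CD8 libraries it went from 795, 912 and 914 to 11145, 9335 and 10899.7, where the day 7 libraries of the lineages overlapped (2.98 ± 0.26, adjusted p = 2.34e-06). Cxcr6, a receptor for the chemokine CXCL16 on tissue-homing effector cells, went from 134, 107 and 107 to 7056, 5743 and 4862 in CD4 cells. CD8 libraries went from 1250.2, 971 and 1117 to 5793, 4336 and 3606, again with overlap on day 7 (3.63 ± 0.29, adjusted p = 1.44e-06). Cxcr3, the receptor for interferon-induced chemokines, had a difference of 1.20 ± 0.32 (adjusted p = 0.0189) and Ifngr1 of 0.82 ± 0.18 (adjusted p = 0.00656). Tbx21 is counted here too. The call of Il12rb1, a chain of the IL-12 receptor (0.93, adjusted p = 0.035), was lost without any 1 library other than CD4 control replicate 2, CD8 control replicates 2 and 3 and CD8 Flica-negative replicate 2 (adjusted p from 0.0574 to 0.0782) and with DESeq2 size factors and TMM scaling (0.0629 to 0.122). That of Ifngr2, a chain of the interferon gamma receptor that fell in both lineages (1.58, adjusted p = 0.0429), was lost without any 1 library other than CD4 Flica-negative replicates 1 and 3, CD8 control replicate 3 and CD8 Flica-negative replicate 1 (adjusted p from 0.065 to 0.119) and with DESeq2 size factors, TMM scaling, all 15 libraries, limma-voom and a replicate block (0.0547 to 0.112).

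Ifng itself, the defining cytokine of type 1 immunity, was not called. It stood at 61.4, 115 and 45.4 in CD4 and 85.5, 62.7 and 80.8 in CD8 controls and rose to 4651, 4536 and 4616 in CD4 and 5207, 4741 and 4357 in CD8 Flica-negative libraries. The lineages overlapped on both days, and the difference was -0.01 ± 0.36 (adjusted p = 0.9998). Ccl5, a chemokine of cytotoxic cells, was higher in CD8 libraries on both days, with a distance of CD4 over CD8 cells of -3.15 on day 0 and -3.10 on day 7, and the difference was 0.04 ± 0.35 (adjusted p = 0.978).

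The interleukin receptors moved in both directions. Of 17 members tested, the difference was called for 8 with the higher response in CD4 cells (7.83% of all genes tested) and 4 with the higher response in CD8 cells (6.39%), and the median was 0.93. Il2ra, the alpha chain that gives the IL-2 receptor its high affinity, had the most negative difference among called genes with a mean of at least 1000. The CD8 libraries moved from 32.6, 23.3 and 5.77 to 1523, 2185 and 1998 and CD4 libraries from 980.4, 763 and 934 to 2593, 3179 and 2564, with CD4 above on both days (-4.87 ± 0.47, adjusted p = 5.53e-06). On the count scale both lineages gained almost the same, and the gains differed by 4.54 normalized counts while CD8 cells started lower. Among all called genes, 98 had the opposite sign when the changes were subtracted as normalized counts, 65 of those with the higher response in CD4 cells and 33 of those with the higher response in CD8 cells.

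Il2rb, the signalling chain for IL-2 and IL-15, had the higher response in CD4 cells. CD4 cells went from 2591 ± 352 to 27897 ± 1059.7 and CD8 cells from 8044 ± 1583 to 31696 ± 1385 (SD, n = 3, difference 1.45 ± 0.21, adjusted p = 0.000172). Il7r, the receptor chain for the survival cytokine IL-7, was kept in CD4 cells, at 9612, 9457 and 10466 on day 0 and 11998, 11104 and 10777 on day 7. In CD8 cells it went from 10152, 10724 and 12709 to 5507, 3633 and 3994, without overlap (1.55 ± 0.22, adjusted p = 0.000159). Il6ra (2.57 ± 0.26, adjusted p = 7.72e-06), Il27ra (1.19 ± 0.21, adjusted p = 0.00136), Il4ra (1.02 ± 0.23, adjusted p = 0.00619) and Il9r (3.89 ± 0.96, adjusted p = 0.0124) fell in both lineages and fell less in CD4 cells. The value for Il9r was 7.45 without CD8 Flica-negative replicate 2. Il3ra rose more in CD8 cells (-1.24 ± 0.32, adjusted p = 0.0169). So did Csf2rb, the common beta chain for IL-3 and GM-CSF (-2.52, adjusted p = 0.0417), a call lost without any 1 library other than CD4 control replicate 2, CD4 Flica-negative replicate 3, CD8 control replicate 1 and CD8 Flica-negative replicate 1 (adjusted p from 0.0724 to 0.114) and with TMM scaling, limma-voom and a replicate block (0.069 to 0.085).

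Homing receptors differed in both directions. Of 21 chemokines and chemokine receptors tested, the difference was called for 5 with the higher response in CD4 (7.83% of all genes tested) and 3 with the higher response in CD8 cells (6.39%), and the median was 0.55. Ccr9, the receptor that guides cells to the small intestine, stood at 2579.6, 2607 and 2465 in CD8 controls and 65, 77.4 and 74.2 in CD8 Flica-negative libraries. CD4 libraries stood at 91.6, 154 and 238 on day 0 and 131, 137 and 159 on day 7, without a called response (difference 4.96 ± 0.40, adjusted p = 1.44e-06). Itgae, the CD103 chain that binds E-cadherin on epithelium, followed the same course, from 4022, 3356 and 3309 to 127, 63.4 and 115 in CD8 cells. CD4 libraries stood at 52.5, 94.8 and 190.3 on day 0 and 131, 165 and 131 on day 7 (difference 5.46 ± 0.52, adjusted p = 5.53e-06). Cxcr5, the receptor for the B cell follicle chemokine CXCL13, fell in CD8 cells from 742 ± 54.3 to 107 ± 4.41 (SD, n = 3), and the CD4 response of -0.42 was not called (2.37 ± 0.39, adjusted p = 0.000611).

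Cx3cr1, the fractalkine receptor of terminal effector cells, rose from 10.6, 7.16 and 1.92 to 2481, 2118 and 1608 in CD8 cells. In CD4 libraries it went from 5.58, 9.67 and 21.3 to 397, 467 and 312 (-3.30 ± 0.63, adjusted p = 0.00223, and 0.0528 with limma-voom). Ccr3, the eotaxin receptor, was low in all groups. It had no count in CD8 controls and 28.8, 26.1 and 33.7 in CD8 Flica-negative libraries, at least 10.8-fold higher. Its call (adjusted p = 0.0287) was lost without each of CD4 Flica-negative replicate 2, CD4 control replicate 1, CD8 Flica-negative replicate 3 and CD8 control replicates 2 and 3 (adjusted p from 0.0519 to 0.0631) and with a replicate block (adjusted p = 0.0554). Among 13 integrins and adhesion genes, 3 had the higher response in CD8 cells (6.39% of all genes tested) beside Itgae in the other direction, with a median of -0.93. Itgb3, the beta 3 chain, went from 439, 489.8 and 554 to 2729, 3481 and 3002 in CD8 cells, and its CD4 response of -0.41 was not called (-3.04 ± 0.29, adjusted p = 5.53e-06). Itga3 (-2.06 ± 0.40, adjusted p = 0.00275) and Itgam (-3.76 ± 0.78, adjusted p = 0.00394) rose in both lineages and rose more in CD8 cells. Neutrophil and macrophage marker sums, given below, were also higher in CD8 than in CD4 Flica-negative libraries. The part of such RNA in the counts of Itgam, and of Csf2rb above, was not tested.

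Of 17 genes associated with regulatory T cells, the difference was called for 9 with the higher response in CD8 (6.39% of all genes tested) and 2 with the higher response in CD4 cells (7.83%), and the median was -1.89. Foxp3, the defining factor of that lineage, was not among the listed genes, and several members (Il2ra, Ctla4, Tnfrsf9) are also induced by activation in any T cell. Tnfrsf9, the costimulatory receptor 4-1BB, rose by 1.82 in CD4 and 3.45 in CD8 cells (-1.63 ± 0.37, adjusted p = 0.0079). Nrp1, a co-receptor for semaphorins, went from 60.2 ± 25.3 to 2057 ± 397 in CD8 and from 416 ± 96.9 to 2750.0 ± 342 in CD4 cells (SD, n = 3, difference -2.37 ± 0.39, adjusted p = 0.000645). Capg, an actin-capping protein, had a difference of -1.31 ± 0.26 (adjusted p = 0.00277). Gpr83 had the higher response in CD4 cells. It fell in CD8 cells from 147, 147 and 100.02 to 2.13, 5.6 and 5.18, and CD4 libraries stood at 424, 403 and 319 on day 0 and 268, 269 and 136 on day 7, without a called response (difference 4.10 ± 0.57, adjusted p = 0.000151).

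The genes of follicular helper cells and of type 2 and type 17 helper cells overlapped with the lists above. Of 12 follicular helper genes tested, the difference was called for 4 with the higher response in CD8 cells (6.39% of all genes tested) and 2 with the higher response in CD4 cells (7.83%), with a median of -1.44, or 0.22 with floor members at their bound. The 6 are Pdcd1, Maf, Il6ra, Cxcr5, the CD40 ligand gene and Tox2. Icos, the costimulator of follicular helper cells, differed by 0.66 ± 0.22 and was not called (adjusted p = 0.0531). It was called without CD4 control replicate 3 (adjusted p = 0.0243) or CD8 control replicate 1 (adjusted p = 0.0328). Of 10 type 2 and type 17 genes tested, 3 had the higher response in CD8 cells (Il1rl1, Areg and Ccr8, beside 6.39% of all genes tested) and 1 in CD4 cells (7.83%), and the median was -0.68. This was Ahr, the aryl hydrocarbon receptor, which started level. It went from 127, 64.8 and 104 to 1981, 1909.6 and 1553 in CD4 cells. In CD8 libraries it went from 69.6, 59.1 and 108 to 379, 367 and 311 (2.04 ± 0.39, adjusted p = 0.0023).

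For several helper genes the CD8 controls were at the floor, with no library above 3 counts, so the fitted size depends on the prior count and a bound on the fold from 3 counts per library is given. Il1rl1, encoding the IL-33 receptor ST2, stood at 0.881, 0 and 0 in CD8 controls and 1173, 1312 and 904 in CD8 Flica-negative libraries, a rise of at least 412-fold. CD4 libraries stood at 30.1, 43.5 and 73.8 on day 0 and 2591, 2816 and 2553 on day 7 (adjusted p of the difference = 9.07e-05). Areg, the epidermal growth factor amphiregulin, had no count in any CD8 control and 71.4, 278 and 154 on day 7, at least 61.2-fold higher. CD4 libraries went from 36.8, 54.2 and 39.1 to 349, 638 and 412 (adjusted p = 0.00222). Tox2, a factor of follicular helper and exhausted cells, rose at least 133-fold in CD8 cells (adjusted p = 4.66e-05). The bounds were 87.3-fold for Socs2 (adjusted p = 0.000207) and 22.4-fold for Ccr8 (adjusted p = 0.00276), and all 5 genes remained higher in CD4 than in CD8 libraries on day 7. In all, 79 called genes had a group at the floor and 422 had none.

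Among abundant genes at the floor in a group, Wdr95 had no count in any CD4 control and 74.9, 87.1 and 65.7 in CD4 Flica-negative libraries, at least 25.5-fold higher. CD8 libraries stood at 64.3, 69.8 and 54.8 on day 0 and 1148, 1055 and 841 on day 7 (adjusted p = 0.00162). Gm44175, a predicted gene, had no count in CD4 Flica-negative libraries after 11.2, 3.87 and 18.7 in CD4 controls, at least 4.02-fold lower. It fell in CD8 cells from 1403, 1704 and 2097 to 800.1, 979 and 601 (adjusted p = 0.0108, and 0.0603 with limma-voom). Mt1, encoding the metal-binding metallothionein 1, rose in both lineages, to 361, 419 and 422 in CD4 and 1126, 1106 and 1665 in CD8 cells. Its call (adjusted p = 0.0445) was lost without any 1 library other than CD4 control replicates 2 and 3 (adjusted p from 0.0541 to 0.76) and with TMM scaling, limma-voom and a replicate block (0.0536 to 0.166). The highest of these p-values was the one without CD4 control replicate 1, where the fitted difference was 0.16. The call of Dapk2, a death-associated kinase that rose at least 55.1-fold in CD4 cells (adjusted p = 0.0353), was lost without any 1 library other than CD4 control replicate 2, CD4 Flica-negative replicate 3 and CD8 control replicates 1 and 2 (adjusted p from 0.0506 to 0.0916) and with a replicate block (adjusted p = 0.0577). That of Shcbp1, which rose at least 60.6-fold in CD4 cells (adjusted p = 0.0262), was lost without each of CD4 Flica-negative replicate 3, CD4 control replicates 2 and 3 and CD8 control replicate 2 (adjusted p from 0.0505 to 0.0706) and with limma-voom (adjusted p = 0.0695).

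Ligands of the TNF family that helper cells display were called for 5 of 8 members tested (14.2% of all genes tested), 3 with the higher response in CD4 cells, and the median was 1.37. Beside Tnfsf8, Lta, encoding lymphotoxin alpha, fell in both lineages and fell less in CD4 cells. CD4 cells went from 299 ± 38.2 to 94.2 ± 28 and CD8 cells from 159 ± 28.5 to 11.8 ± 2.19 (SD, n = 3, difference 2.08 ± 0.50, adjusted p = 0.0111, 0.22 with all 15 libraries in the fit and 0.0518 with limma-voom). Tnfsf14, encoding LIGHT, rose in both lineages (1.38, adjusted p = 0.0373). Its call was lost without any 1 library other than CD4 control replicates 2 and 3, CD4 Flica-negative replicate 3, CD8 control replicate 1 and CD8 Flica-negative replicate 1 (adjusted p from 0.0577 to 0.0782) and with DESeq2 size factors, TMM scaling, all 15 libraries and a replicate block (0.0516 to 0.0659).

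Most naive and stem-like T cell genes fell in both lineages, and all but 1 of those with a called difference had the higher response in CD4 cells. Of 23 members tested, 21 fell in CD4 cells, beside 31.1% of all genes tested, and 22 in CD8 cells, beside 34.2%. The difference was called for 17 (14.2% of all genes tested), 16 of them with the higher response in CD4 cells, and the median was 1.61. Tcf7, encoding TCF1, which keeps T cells in a self-renewing state, stood at 37628, 33086 and 36887 in CD4 and 30058, 27184 and 28598 in CD8 controls. On day 7 it stood at 5926, 8016 and 8511 in CD4 and 1678, 1354 and 1537 in CD8 libraries, without overlap (1.97 ± 0.20, adjusted p = 7.63e-06). Ccr7, the lymph node homing receptor, was level on day 0, at 8321, 7902 and 7989 in CD4 and 8339.6, 8273 and 7377 in CD8 controls. It stood at 1050.0, 1298 and 1060.3 in CD4 and 199, 154 and 276 in CD8 libraries on day 7 (2.42 ± 0.26, adjusted p = 1.23e-05).

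Bach2, a repressor of effector genes, had responses of -3.00 in CD4 and -4.61 in CD8 cells (1.61 ± 0.31, adjusted p = 0.00264). Id3 (1.89 ± 0.36), Igfbp4 (1.90 ± 0.34), Atp1b1 (2.62 ± 0.29), Rapgef4 (3.09 ± 0.36), Tdrp (2.72 ± 0.53) and Treml2 (1.59 ± 0.22) did likewise, with adjusted p of 0.00202, 0.00136, 1.93e-05, 2.97e-05, 0.00263 and 0.000159. St8sia1, a sialyltransferase outside the list, fell from 1910.0, 1924 and 2056 to 37.3, 20.5 and 38 in CD8 cells. The CD4 libraries moved from 3299.7, 3291 and 4669 to 576, 688 and 599.8 (3.34 ± 0.31, adjusted p = 4.70e-06). Lef1, a partner of TCF1, had responses of -1.86 and -2.03, and its difference of 0.17 ± 0.19 was not called (adjusted p = 0.611).

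Satb1, a chromatin organiser, differed by 0.70 ± 0.17 (adjusted p = 0.0111, and 0.0665 with TMM scaling). The call of Dapl1 (1.70, adjusted p = 0.0199) was lost without CD4 Flica-negative replicate 1 (adjusted p = 0.0537) and with TMM scaling, all 15 libraries and limma-voom (0.0632 to 0.214). That of Als2cl (0.77, adjusted p = 0.0414) was lost without any 1 library other than CD4 control replicate 3, CD4 Flica-negative replicate 1 and CD8 control replicate 1 (adjusted p from 0.0554 to 0.113) and with DESeq2 size factors, TMM scaling, all 15 libraries and limma-voom (0.0511 to 0.0988). Mmp14, a membrane-bound metalloprotease and the member with the higher response in CD8 cells (-3.57, adjusted p = 0.0316), lost its call without any 1 library other than CD4 control replicate 3, CD4 Flica-negative replicate 1, CD8 control replicate 3 and CD8 Flica-negative replicates 1 and 2 (adjusted p from 0.0507 to 0.0894).

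**Figure D4:**
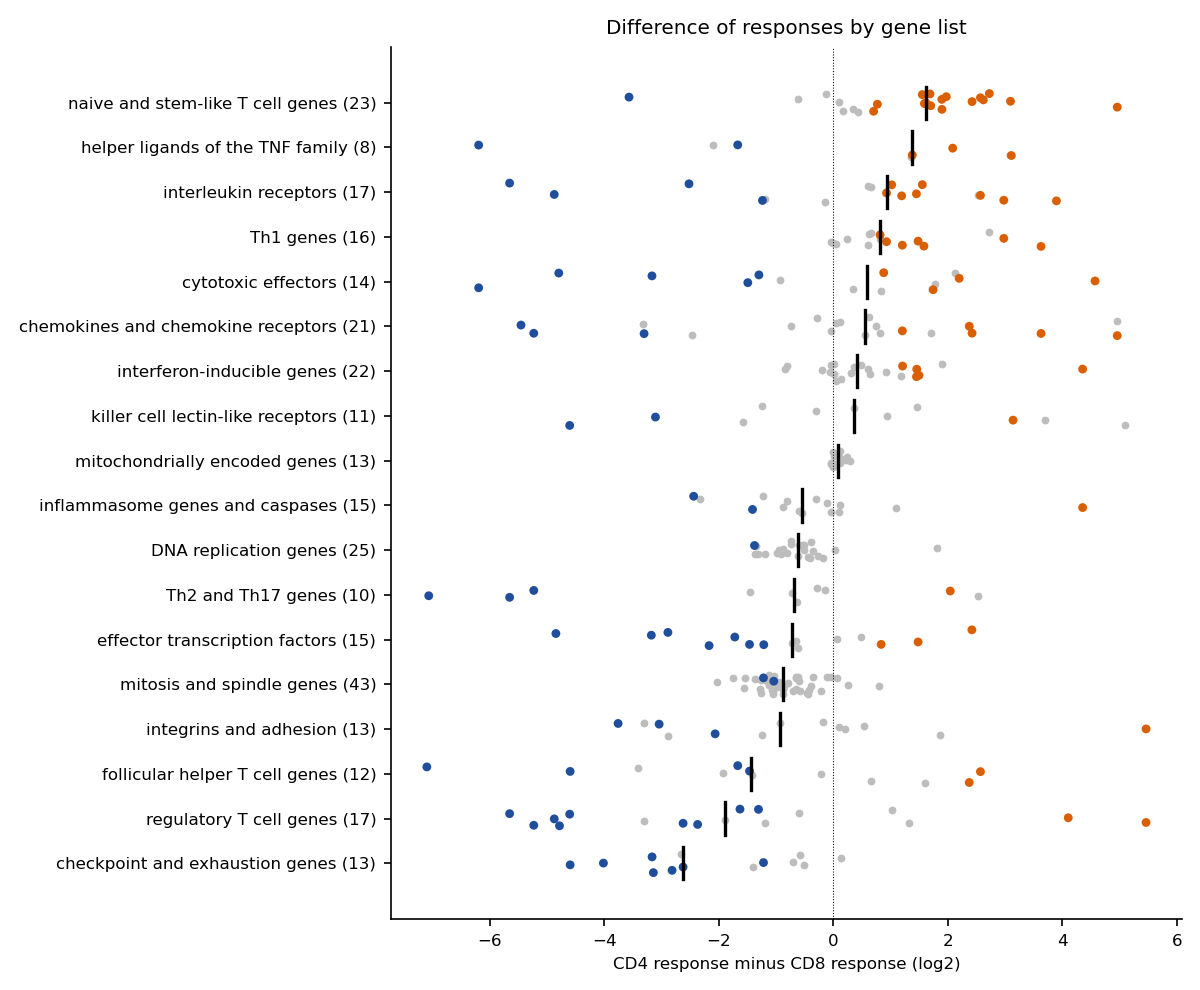
Difference of responses (CD4 minus CD8, log2, x axis) of each tested member of 18 gene lists, with the number tested beside the name and a black bar at the median of the list. Orange and blue points are members called with the higher response in CD4 and CD8 cells and grey points were not called. The medians run from -2.62 for checkpoint genes to 1.61 for naive genes, beside -0.01 over all genes tested.

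Genes outside these lists made up many of the largest differences. Adgrg1, an adhesion receptor marking cytotoxic lymphocytes, had the most negative value among genes with a mean of at least 100 and no group at the floor. It went from 7.05, 0 and 0 to 906, 866 and 769 in CD8 cells. In CD4 libraries it went from 3.35, 22.2 and 12.5 to 32.6, 27.9 and 55.3 (-6.80 ± 1.01, adjusted p = 0.00026). Ptpn3, a tyrosine phosphatase, went from 3.52, 0 and 0 to 191, 275 and 251 in CD8 cells but remained below CD4 cells. The latter went from 96, 103 and 88.9 to 615, 665 and 557 (-4.82 ± 0.72, adjusted p = 0.000278). Adamts14, an extracellular protease, went from 160.3, 141 and 116 to 2587, 3204 and 2833 in CD8 cells. CD4 libraries went from 333, 280.4 and 487 to 627, 631 and 704 (-3.53 ± 0.31, adjusted p = 2.60e-06). Ptms, encoding parathymosin, rose from 165 ± 37.4 to 4348 ± 364 in CD8 and from 1044 ± 123 to 2934 ± 250.3 in CD4 cells (SD, n = 3, difference -3.23 ± 0.26, adjusted p = 1.44e-06). Cd177, best known from neutrophils, differed by -5.03 ± 0.98 (adjusted p = 0.0027). It stood at 7.93, 0 and 0 in CD8 controls, 349, 656 and 694 in CD8 Flica-negative, 15.6, 41.6 and 35.6 in CD4 control and 111, 203 and 262 in CD4 Flica-negative libraries. Neutrophil marker sums, given below, were also higher in CD8 than in CD4 Flica-negative libraries. The part of neutrophil RNA in the Cd177 counts was not tested. Of the CD8 controls, only replicate 1 held counts of Adgrg1, Ptpn3 and Cd177. When each library was left out in turn, the value lay between -11.22 and -6.16 for Adgrg1 and between -8.32 and -4.27 for Ptpn3. For Cd177 it lay between -9.61 and -4.46. The most negative of each was the value without CD8 control replicate 1.

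With the higher response in CD4 cells, Lcn4, a lipocalin, went from 669, 605 and 521 to 115, 140.0 and 111 in CD8 cells. The CD4 libraries moved from 17.9, 0.967 and 16 to 89.9, 146 and 108, so that the day 7 libraries of the lineages overlapped (5.59 ± 0.70, adjusted p = 5.71e-05). Pmepa1, a target and inhibitor of TGF-beta signalling, fell in CD8 cells from 459.9, 442 and 620.3 to 14.9, 7.46 and 10.4 and less in CD4 cells, from 181, 213 and 247 to 59.1, 189.7 and 59.3 (4.47 ± 0.64, adjusted p = 0.0002). Gm10499, a predicted gene, reached 587, 820.3 and 359.6 in CD4 and 22.4, 35.5 and 30.2 in CD8 Flica-negative libraries (4.75, adjusted p = 0.0201). Its call was lost without each of CD4 Flica-negative replicate 2 and CD8 control replicate 3 (adjusted p from 0.0581 to 0.246) and with all 15 libraries (adjusted p = 0.094). The value was 9.46 without CD4 control replicate 2.

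Lists of dividing cells showed few calls, and the mitochondrial list showed none. All 43 mitosis and spindle genes and all 25 DNA replication genes tested rose in both lineages. Over all genes tested, 38.8% rose in CD4 and 42.0% in CD8 cells. Only 25 of the 39 replication genes chosen were listed, against 43 of 44 mitosis genes, so these counts cover listed genes alone. The median differences of the mitosis and replication genes tested were -0.87 and -0.61, and 40 of 43 and 23 of 25 values were negative. By edgeR the difference was called for 2 mitosis genes and 1 replication gene (14.2% of all genes tested). For mitosis genes DESeq2 called 5 and limma-voom 1, and 15 had an unadjusted p below 0.05. For replication genes these counts were 1, 1 and 6. Few calls do not show that the responses were alike. Mki67, encoding Ki-67, stood at 6632, 6251 and 7997 in CD4 and 8699, 13395 and 15258 in CD8 Flica-negative libraries (-0.43 ± 0.28, adjusted p = 0.332). The replication gene was Lig1 (-1.39 ± 0.35, adjusted p = 0.0152, and 0.0506 with TMM scaling). The mitosis genes were Cenpa, a centromere protein (-1.04, adjusted p = 0.0243), and Ccnb2, cyclin B2 (-1.22, adjusted p = 0.0461). Cenpa was lost without each of CD4 Flica-negative replicates 1 and 2, CD4 control replicate 3, CD8 Flica-negative replicate 3 and CD8 control replicate 2 (adjusted p from 0.0532 to 0.0657). Ccnb2 was lost without any 1 library other than CD4 control replicates 2 and 3, CD4 Flica-negative replicate 3, CD8 control replicate 1 and CD8 Flica-negative replicate 1 (adjusted p from 0.0609 to 0.13) and with TMM scaling, limma-voom and no filter on low counts (0.0529 to 0.176). All 13 mitochondrially encoded genes fell in both lineages, beside 31.1% of all genes tested in CD4 and 34.2% in CD8 cells. Their median difference was 0.09. The difference was called for none of them by edgeR (14.2% of all genes tested), DESeq2 or limma-voom, with 0 at an unadjusted p below 0.05.

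Of 22 interferon-inducible genes, 5 had the higher response in CD4 cells (7.83% of all genes tested) and none in CD8 cells (6.39%), by edgeR, and the median was 0.42. DESeq2 called 7 and limma-voom 5 of the 22, and 7 had an unadjusted p below 0.05. Tgtp1 (1.495 ± 0.26, adjusted p = 0.00114) and Tgtp2 (1.46 ± 0.26, adjusted p = 0.0016) are near-identical GTPases whose reads may be split between them. Together with Gbp9 (1.21 ± 0.20, adjusted p = 0.000806) they fell in both lineages and fell less in CD4 cells. Ifi204, a DNA sensor of the same family as AIM2, rose in both lineages and far more in CD4 cells, from 4.47, 8.7 and 5.34 to 853, 965 and 745. CD8 libraries went from 5.29, 5.37 and 26 to 60.7, 103 and 77.7 (difference 4.35 ± 0.73, adjusted p = 0.000806). The fifth, Iigp1 (1.45, adjusted p = 0.0306), lost its call without each of CD4 Flica-negative replicates 2 and 3, CD4 control replicates 1 and 3, CD8 Flica-negative replicate 1 and CD8 control replicate 3 (adjusted p from 0.0506 to 0.0756) and with TMM scaling (adjusted p = 0.0515).

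Among 15 inflammasome genes and caspases, the list closest to the Flica sort, the difference was called for 3 (14.2% of all genes tested), and the median was -0.55. Ifi204, described above, is the member with the higher response in CD4 cells. Casp1, the target of the probe, rose by 3.43 in CD4 and 3.48 in CD8 cells, and its difference of -0.05 ± 0.40 was not called (adjusted p = 0.976). Card9, an adaptor of pattern recognition receptors (-2.44, adjusted p = 0.0457) lost its call without any 1 library other than CD4 control replicate 3, CD8 control replicate 3 and CD8 Flica-negative replicate 3 (adjusted p from 0.0585 to 0.109) and with TMM scaling, limma-voom, no filter on low counts and a replicate block (0.0559 to 0.0939).

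Markers of other cell types moved with day, and for some lists by different amounts in the lineages. The 16 neutrophil markers summed to 63.6 to 149 normalized counts in the controls, 2746 to 7864 in CD4 and 12145 to 18683 in CD8 Flica-negative libraries. Of the 15 tested, 13 had a negative difference, the median was -2.04, and 6 had a group at the floor. By edgeR (14.2% of all genes tested) and limma-voom the difference was called for 0 and by DESeq2 for 2. An unadjusted p below 0.05 was reached by 3 (S100a8 -2.48 ± 1.05, edgeR adjusted p = 0.132). Without CD8 control replicate 1, S100a8 was called at -8.66 (adjusted p = 0.000576). The 12 listed macrophage or monocyte markers summed to 152 to 305 in controls, 509 to 974 in CD4 and 1143 to 2381 in CD8 Flica-negative libraries. By edgeR 1 of 6 tested was called (14.2% of all genes tested). This was Lyz2 (-2.16, adjusted p = 0.0426), which lost its call without any 1 library other than CD4 control replicate 3, CD4 Flica-negative replicate 3, CD8 control replicate 1 and CD8 Flica-negative replicate 1 (adjusted p from 0.0644 to 0.119) and with TMM scaling, limma-voom and a replicate block (0.0676 to 0.095). The sum of the 14 listed B cell markers went in both lineages from 12174 to 17260 in controls to 1124 to 1305 in CD4 and 1414 to 1695 in CD8 Flica-negative libraries. Among them Igkc had a difference of -2.38 ± 0.51 (adjusted p = 0.00478) and Cd22 of 1.23 ± 0.31 (adjusted p = 0.0128), in opposite directions. Cd79b (-1.89, adjusted p = 0.0161) lost its call without CD4 control replicate 1 (adjusted p = 0.0517) and with limma-voom (adjusted p = 0.0721). The defining B cell gene Ms4a1 was at 0 in all CD4 and CD8 Flica-negative libraries.

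Of 14 dendritic cell markers 9 were listed, MHC class II genes among them, and Clec9a and Zbtb46 were not. The 9 summed to 18445 to 24555 in controls, 2491 to 3407 in CD4 and 8498 to 11804 in CD8 Flica-negative libraries. B cell marker sums, given above, also fell from day 0 to day 7. The part of B cell RNA in the class II counts was not tested. By edgeR the difference was called for 5 of 7 tested (14.2% of all genes tested), 4 of the class II pathway and Ccr7. The limma-voom fit called 2. H2-Eb1 fell less in CD8 cells (-2.29 ± 0.48, adjusted p = 0.00423), as did H2-Ab1 (-1.51 ± 0.37, adjusted p = 0.0127, 0.0718 with TMM scaling and 0.061 with limma-voom). H2-Aa (-1.69, adjusted p = 0.0227) lost its call without each of CD4 Flica-negative replicate 1, CD4 control replicate 1, CD8 Flica-negative replicate 1 and CD8 control replicate 2 (adjusted p from 0.0529 to 0.0677) and with TMM scaling and limma-voom (0.0729 to 0.0803). The 8 listed natural killer cell markers summed to 211 to 351 in controls, 2572 to 3031 in CD4 and 20253 to 25246 in CD8 Flica-negative libraries. The difference was called for 2 of 5 tested (14.2% of all genes tested), Gzma and Klrb1c. On day 7 most of the natural killer cell sum was Gzma, which T cells also express, and Ncr1, Klra8 and Klra9 were at 0 in the CD4 Flica-negative libraries. The 9 listed erythroid markers summed to 372 to 9244 over the 12 libraries, lowest in replicate 3 of all 4 groups. There were 0 calls among 8 tested by edgeR (14.2% of all genes tested), DESeq2 and limma-voom, and 1 had an unadjusted p below 0.05. Of the markers of plasma cells, mast cells or basophils, megakaryocytes or platelets and endothelial cells, 7 passed the filter on the mean. By edgeR 1 was called (14.2% of all genes tested), Prdm1, which T cells also express. Jchain, the joining chain of secreted antibodies, differed by -3.40 (adjusted p = 0.0523) and was called by DESeq2 (adjusted p = 0.0138) and limma-voom (adjusted p = 0.0311). In these bulk libraries, fewer cells of a type and less RNA per cell cannot be told apart, and the part that RNA of other cells has in any difference reported here was not tested.

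**Figure D5:**
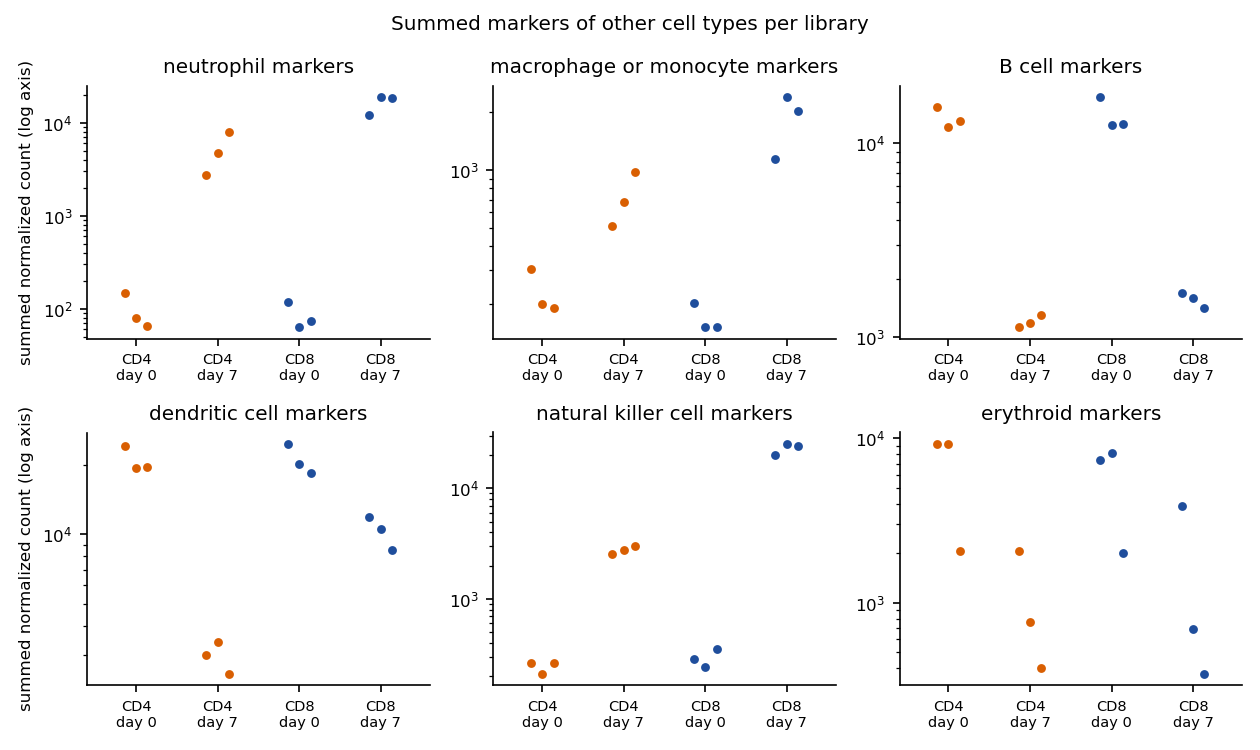
Summed normalized counts (log axis) of the listed markers of 6 other cell types in each of the 12 libraries, with CD4 libraries in orange and CD8 libraries in blue. Neutrophil, macrophage and natural killer cell markers were higher on day 7 and highest in CD8 Flica-negative libraries, B cell markers were lower on day 7 in both lineages, and erythroid markers varied within each group.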

How the data were processed

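RNA was sequenced from sorted mouse T cells with oligo-dT libraries and paired 150-base reads. The submitters' processing notes name STAR 2.7.1a, DESeq2 and GRCm38, and the counting tool is not given in the sources used here. The authors deposited 4 gene tables, each limited to genes that passed an adjusted p-value of 0.05 and a log2 fold change of 2 in either direction in 1 comparison (2069, 2496, 3461 and 972 genes). Each table holds raw read counts per gene for all 15 libraries and the authors' mean of normalized counts, a signal from which the size factors were solved (largest relative error 6e-15). The deposited log2 fold changes and p-values served only to check that filter, and 4 tables of enriched terms were not used.

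The union held 4567 genes, of which 4423 had a symbol. The counts of 12 libraries were scaled with those size factors and fitted with edgeR 4.0.16 (quasi-likelihood test, R 4.3.3) with 1 mean per group, for genes that averaged 10 or more normalized counts. The lineage by day term, both responses and the lineage difference on each day were tested, 2-sided, with Benjamini-Hochberg adjustment over all 3523 genes. Values are given as normalized counts with the SD over 3 libraries, and log2 values with their SE. Library totals are known only over listed genes. With 3 libraries per group and no statement of the animals behind each, p-values measure the spread between these libraries. No pair of libraries agreed within sampling noise.

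Genes named were the 10 most positive and 10 most negative differences with a mean of at least 100 and no group at or under 3 counts in every library, the 5 most extreme in each direction with a mean of at least 1000, called list members and up to 3 members per list not called, 3 genes per direction with such a low group (bounds only), marker genes, and the 3 most abundant genes per direction with opposite responses. The 18 pathway and 14 marker lists and the comparison were chosen with earlier results of these data known. Alternatives were TMM and DESeq2 scaling, DESeq2 1.42.0, limma-voom (limma 3.58.1), other filters and thresholds, all 15 libraries, a replicate block and leaving out each library. On simulated data with 200 of 3523 genes changed 4-fold, 70 were called, all with the right sign, beside 3 unchanged genes, so differences of that size can be missed. Some members of the gene lists are counted but not reported by name here.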

Additional observations from a re-analysis of the deposited data

Results flagged for a closer look

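The lineage by day term is itself a test of whether CD4 and CD8 cells respond differently, so each gene it called (501 in all) is flagged, and those the report names for their size or abundance are given here, as the CD4 response minus the CD8 response on the log2 scale (edgeR adjusted p below 0.05). With the higher response in CD8 cells these were Adgrg1 (-6.80), Fasl (-6.19), Cd177 (-5.03), Il2ra (-4.87), Zbtb7b (-4.84), Ptpn3 (-4.82), Gzmk (-4.79), Klrg1 (-4.60), Pdcd1 (-4.60), Myo10 (-4.35), Adamts14 (-3.53), Ly6c1 (-3.53) and Ptms (-3.23). With the higher response in CD4 cells they were Scart1 (6.65), Lcn4 (5.59), Itgae (5.46), Scart2 (5.17), Ccr9 (4.96), Gm10499 (4.75), Adgrg5 (4.59), Nkg7 (4.57), Pmepa1 (4.47), Ifi204 (4.35), Cxcr6 (3.63), St8sia1 (3.34), Klrd1 (3.14) and Tnfsf8 (3.11). All but Gm10499 kept their call under each of the 21 alternative fits in which they were tested. The part of neutrophil RNA in the Cd177 counts was not tested. Groups of 3 libraries are too small for a test of single outlying libraries.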

How the results depend on the processing

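Across 21 alternative fits the difference of responses was called for 370 genes (TMM scaling) to 714 (DESeq2 Wald test), beside 501, and 367 and 500 of those were shared with the reported calls. Of 118 named genes that were called, 85 kept the call throughout and 33 lost it in at least 1 fit, and 27 of 104 not called were called in at least 1. At an adjusted p below 0.01 the difference kept 250 genes, 137 higher in CD4 and 113 higher in CD8 cells, and the day 7 lineage difference 365. Leaving out 1 library gave 372 to 547 genes for the difference, 208 to 264 and 164 to 283 for the directions, and 487 to 870 for the day 7 lineage difference, lowest without CD4 Flica-negative replicate 2. Mt1 ran from -6.58 to 0.16 when libraries were left out and reversed without CD4 control replicate 1 (0.16, adjusted p = 0.76). The causes were not tested. TMM scaling moved the median CD4 response by -0.37 and the CD8 response by -0.40, but the median difference by 0.04. With the replicate number as a block 454 genes were called, 431 of them shared. Same-numbered libraries correlated at -0.052 to 0.115 over 18 pairs, 2 above 0.1. Pairs of CD4 and CD8 libraries of the same day were all positive, at 0.039 to 0.115. Pairs across days lay between -0.052 and 0.025. Erythroid marker sums were lowest in replicate 3 of all 4 groups. The main fit treated all libraries as independent. Whether CD4 and CD8 libraries of the same day and number came from the same mice was not tested. Chosen after seeing the data, counting only genes with no group at or under 3 counts in every library left 422 calls. Low counts in a group limit the size of a log2 difference, and listed genes limit its scope.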
